A study of Mus musculus with 9 samples.

Results

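Metallothioneins are small, cysteine-rich proteins that bind zinc, copper and cadmium, and the group described here joins the metallothionein genes Mt1 and Mt2 to 3 genes of zinc control, Mtf1, Slc30a1 and Slc39a10. Its members were all probe sets that the platform annotation gives with exactly these symbols: 12 of the 45037 probe sets on the array, for 5 of 18193 named genes. The genes were picked because Mt1 and Mt2 read high in cells with full-length PREX2 and Mt2 read high when Suv420h1-GFP was put back, so differences in those comparisons are given below as descriptions, without a test. Of the 12 probe sets, 9 had a mean signal of at least 100 over the 9 arrays and entered the tests: 1 of 2 for Mt1, the single one for Mt2, 3 of 5 for Mtf1 and both for Slc30a1 and for Slc39a10.

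All cells were spontaneously immortalised mouse embryonic fibroblasts made from E13.5 embryos, and total RNA was hybridised to 9 Affymetrix arrays. A line from Suv420h1 knockout embryos (Suv420h1 -/-, an H4 lysine methyltransferase also named Kmt5b) was measured with no added gene (untransduced) and with GFP, which form the null line group (2 arrays), and with a Suv420h1-GFP fusion, the add-back (1 array). Cells of wild-type embryos carried GFP or LacZ (control vector, 2 arrays), or, by lentivirus, full-length PREX2 (PREX2 wt, 1 array) or PREX2 ending early at K278*, E824* or Q1430* (truncated PREX2, 3 arrays). PREX2 activates the GTPase Rac. Beyond the embryonic day, the labels name no strain, promoter or clone, describe no treatment with metal, and leave unsaid whether any group's arrays are separate cultures. The p-values below thus measure array-to-array spread, which may be technical. No group repeats a label, so that spread also includes any effect of GFP, of LacZ or of the site of truncation. In RNA from whole cultures, fewer cells expressing a gene and less RNA per cell cannot be told apart.

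In mouse cells a rise in free zinc is sensed by MTF-1, the zinc-finger transcription factor made from Mtf1. It binds metal response elements and switches on Mt1, Mt2 and Slc30a1, which encodes the zinc exporter ZnT1 of the plasma membrane, and it holds down Slc39a10, which encodes the zinc importer ZIP10. Mt1 and Mt2 lie next to each other and are also induced by glucocorticoids, inflammatory cytokines and oxidative stress.

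Of 5 probe sets of Suv420h1 (listed as Kmt5b), 1, singled out after its values were seen, followed the labels: it read 8.85 and 17.3 on the null arrays, 150.3 on add-back and 118 to 182 in wild-type cells. The other 4 did not, and a mouse Prex2 probe set read 795 with full-length PREX2 but already 677 with LacZ. The arrays differed mainly by line, and the wild-type GFP array stood apart from the other wild-type-line arrays: on the second principal component, which held 17.8% of the variance, it lay at 59.6 and the others between -30.7 and 19.4. Differences of members that rest on this array are therefore mostly given with and without it, whereas correlations are given only with it. The fibroblast genes Col1a2, Vim and Fn1 were bright on all arrays, with mean signals of 28123, 35315 and 18702. The surface marker Thy1, however, was near background in the Suv420h1 knockout cells (6.90 to 27.3, against 1097 to 3641 in wild-type cells). Other fibroblast markers varied within the wild-type line: from GFP to E824*, its lowest and highest arrays for both, Dcn ran from 962 to 27342 and Pdgfra from 1517 to 5465. Of 26 markers of 7 other cell types, 10 had a mean signal of at least 100, among them Map2 (980), Csf1r (368), Fabp4 (285), Tek (233) and Tubb3 (183), while Alb, Ttr, Apoa1, Pecam1, Ptprc, Adipoq and Gfap did not.

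The promoters of Mt1 and Mt2 are shown because both genes read high on the same arrays and because the core of the metal response element can be located in them. The sequences are RefSeq's on GRCm38.p6, on the plus strand, from 250 bases before the annotated start to 30 bases after it. Capitals mark every match, on either strand, to TGCACNC or TGCGCNC, which together spell the element's core.

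Mt2, chr8:94172368-94172647: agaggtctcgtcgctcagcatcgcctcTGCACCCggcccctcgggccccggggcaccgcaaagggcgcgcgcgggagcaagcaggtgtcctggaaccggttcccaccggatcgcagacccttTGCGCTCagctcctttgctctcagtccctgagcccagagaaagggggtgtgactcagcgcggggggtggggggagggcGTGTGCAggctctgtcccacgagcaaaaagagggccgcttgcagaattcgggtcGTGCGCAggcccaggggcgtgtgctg
Mt1, chr8:94178839-94179118: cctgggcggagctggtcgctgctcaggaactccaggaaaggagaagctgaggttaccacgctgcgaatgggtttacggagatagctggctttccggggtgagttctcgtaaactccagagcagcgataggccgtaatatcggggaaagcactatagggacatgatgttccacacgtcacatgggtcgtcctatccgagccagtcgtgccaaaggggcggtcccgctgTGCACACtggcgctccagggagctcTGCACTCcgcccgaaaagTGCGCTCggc

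Over the full windows of 300 bases, which end 50 bases after the start, Mt2 held 4 core matches, 2 of each spelling, and Mt1 held 3, of which 2 were TGCACNC. The Mt1 matches at offsets of 2 and 20 bases lay after the annotated start, as did the Mt2 match at 4, and the others lay before it. No core match overlapped another. Of 32851 such windows in the RefSeq table, 25.7% held at least 1 match, 1.97% held at least 3 and 0.517% at least 4. Both windows were richer in G and C (60.7% for Mt1 and 67.7% for Mt2) than the median window (52.7%). Slc30a1 held 2 matches and the windows of Mtf1 (1) and Slc39a10 (2) held 0. The letters TGACNNNGC, which spell the core of the antioxidant response element, occurred once in the Mt2 window and once in that of Slc30a1, against 12.4% of all windows with at least 1, and overlapped no metal-element match. A match is a run of letters and not a measured binding site.

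Mt1 and Mt2 were highest in the add-back cells and in the cells with full-length PREX2. Mt1, at its bright probe set, read 4878 on the add-back array, against 1679 on the untransduced and 2368 on the GFP null array. In the wild-type line Mt1 read 4026 with full-length PREX2, 1572 with GFP and 2519 with LacZ, and 2416, 3138 and 3332 with K278*, E824* and Q1430*. Both Suv420h1-GFP and full-length PREX2 thus stood above every other array for Mt1, and the share of probe sets with that order was not counted. As a looser background, 23.7% of all probe sets tested were higher with full-length PREX2 than on both controls. On add-back, 38.9% were higher than on both null arrays. The control-vector and null-line arrays covered much the same range for Mt1, 1572 to 2519 and 1679 to 2368. The name of this probe set ends in _s_at, Affymetrix's mark for probes shared between transcripts, so part of its signal may come from a related transcript. The other Mt1 probe set read 3.70 to 42.3, near background, and was not tested.

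Mt2 followed nearly the same order. Its add-back signal was 2368 and its null-line signals were 616 and 718. With full-length PREX2 it read 1456, with GFP 556 and with LacZ 1001, and with K278*, E824* and Q1430* it read 1233, 1169 and 1277. The 9 arrays kept the same order for both genes except K278*, which lay below E824* and LacZ for Mt1 and above both for Mt2. The wild-type GFP array was the lowest of all for both.

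**Figure D1:**
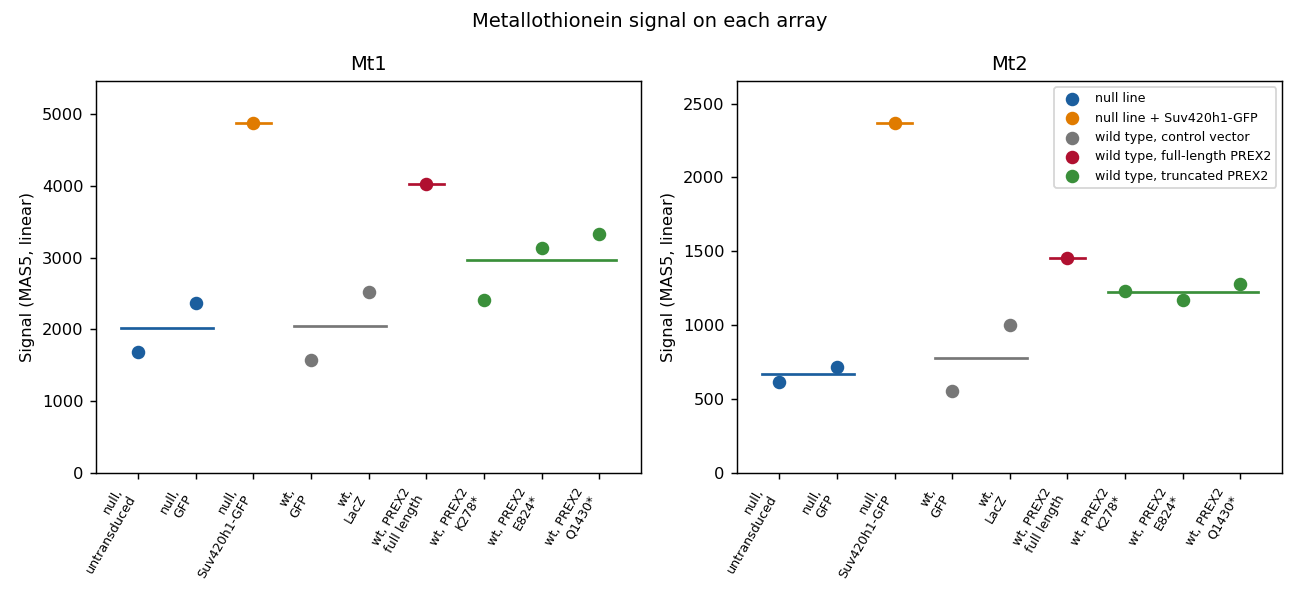
Signal (linear, MAS5) of Mt1 (left) and Mt2 (right) on each of the 9 arrays; points are arrays, coloured by group, and lines are group means. Mt1 read 4878 and Mt2 2368 on the add-back array, the highest of all, and both came next with full-length PREX2, at 4026 and 1456.

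On add-back, Mt2 was 3.47-fold above the null-line mean (log2 difference of 1.79, 1 against 2 arrays, on the log2(signal + 25) scale used throughout) and Mt1 was 2.43-fold above it (1.28). Against the GFP null array alone, which carries the matching tag, the ratios of signals were 3.30 for Mt2 and 2.06 for Mt1. The 2 null arrays themselves differed by a ratio of 1.17 for Mt2 and 1.41 for Mt1. Larger upward differences than that of Mt2 were seen at 3 of 19090 probe sets tested, and than that of Mt1 at 24; a difference of more than 2-fold upward was found at 0.414% of probe sets. Since the members were chosen on this comparison, these ranks carry no weight as a test. Other genes moved on the same array. The heme oxygenase Hmox1 read 3421 against 2120 and 2026 on the null arrays, the largest rise of 11 oxidative-stress genes tested. The median log2 difference of those 11 genes was 0.06, and 4 of them were below 0. The summed signal of 3 adipocyte markers was 895 against 387 and 449, with Adipoq at 22.0. The part of these genes in the metallothionein levels was not tested.

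With full-length PREX2, Mt1 was 2.01-fold above the control-vector mean (log2 difference of 1.01, 1 against 2 arrays) and Mt2 was 1.92-fold above it (0.94). The size of this difference rests on the GFP array. Against LacZ alone the signal ratios were 1.60 for Mt1 and 1.46 for Mt2, and against GFP alone 2.56 and 2.62. The 2 control arrays differed from each other by as much: LacZ over GFP gave 1.60 for Mt1 and 1.80 for Mt2, and 13.7% of probe sets tested were more than 1.5-fold lower on GFP than on LacZ. The step from LacZ to full-length PREX2 was therefore no larger than the spread within the control group. Upward differences of more than 2-fold were found at 0.498% of probe sets, and those larger than that of Mt1 at 93 and of Mt2 at 111 of 19090. The summed signal of 10 fibroblast markers was also low on the GFP array (152440) and on K278* (155043). The remaining 4 arrays of the wild-type line lay between 196997 and 208820. Not every marker was low on GFP: Vim (38669 against 36434 with LacZ) and S100a4 (32410 against 29213) were higher there. The others were lower on GFP than with LacZ, Dcn most of all (962 against 21523). On K278*, Mt2 was above LacZ (1233 against 1001) and Mt1 was below it (2416 against 2519). The part of the fibroblast-marker signal in the metallothionein levels was not tested.

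**Figure D2:**
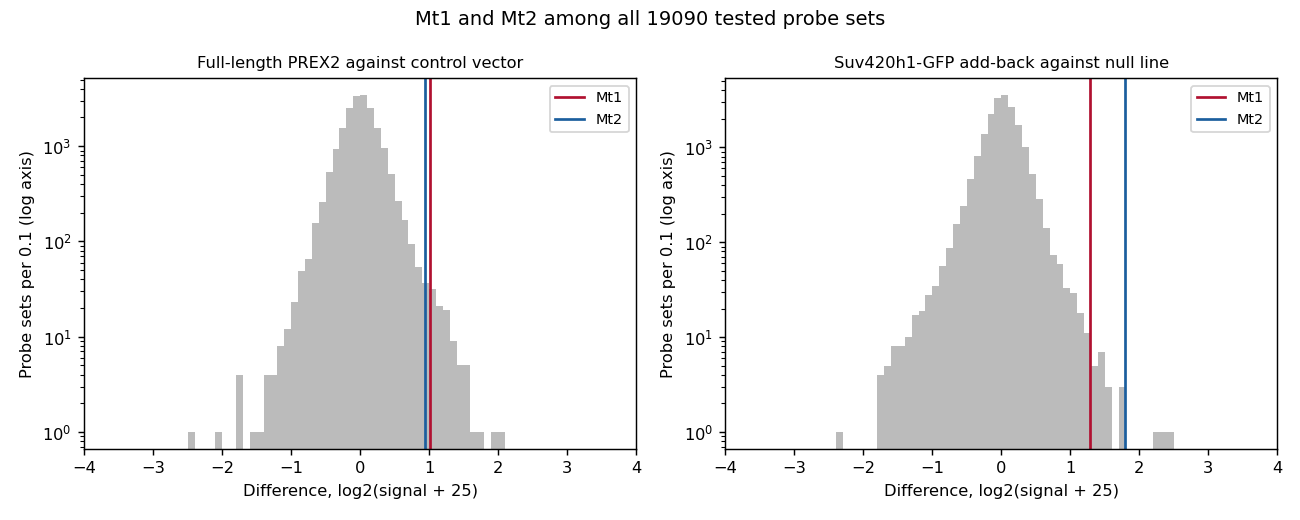
Number of probe sets by log2 difference (bins of 0.1, log axis) with full-length PREX2 against control vector (left) and add-back against null line (right); vertical lines mark Mt1 and Mt2. In the left panel both lie near 1 (1.01 and 0.94), and in the right panel Mt2, at 1.79, has only 3 probe sets above it.

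The truncated forms ask whether PREX2 that ends early changes these genes, in a comparison that shares its control arrays with that of full-length PREX2. Mt1 and Mt2 were chosen for standing above these controls, so their p-values here are not independent of that choice. Mt2 averaged 1226 ± 54.3 (SD, n = 3) with truncated PREX2 and 778 ± 314 (SD, n = 2) with control vector, and all 3 truncation arrays lay above both control arrays. The log2 difference was 0.70 (SE 0.230) and did not pass in limma (unadjusted p = 0.018, adjusted p = 0.844). Mt1 averaged 2962 ± 482 (SD, n = 3) against 2046 ± 669.6 (SD, n = 2), a log2 difference of 0.55 (SE 0.248, limma adjusted p = 0.844), and its groups overlapped because K278* read below LacZ. Groups that did not overlap, with truncated PREX2 higher, were found at 7.32% of probe sets. The Mt2 difference depended on which control was kept: from GFP alone, the lowest array for Mt2, it was 1.11 (past the threshold), and from LacZ alone 0.29 (not past it).

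None of the 9 member probe sets passed in limma for truncated PREX2 against control vector, 1 of them (Mt2) at an unadjusted p under 0.05. In that comparison 0.00524% of all probe sets passed, which is 1 probe set, of the interferon-induced gene Oas1a, and 2.82% had an unadjusted p under 0.05. Set against full-length PREX2, all 3 truncation arrays read lower for both genes (as at 17.0% of probe sets), by ratios of full-length to truncated between 1.21 and 1.67 for Mt1 and between 1.14 and 1.25 for Mt2. The full-length array was one of those the genes were chosen on, so this difference (log2 of -0.45 and -0.24) was not tested.

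Loss of Suv420h1 was asked about by comparing the null line with control-vector cells, where genotype and cell line cannot be told apart. Vector differs as well, since the untransduced null array carried no added gene and each control array carried GFP or LacZ. Both groups are baselines over which Mt1 or Mt2 was chosen, so for these genes the p-values are not independent of the choice. Neither metallothionein differed beyond the spread of the arrays: Mt1 averaged 2024 ± 487 (SD, n = 2) in the null line and 2046 ± 669.6 (SD, n = 2) with control vector (log2 difference of 0.00, SE 0.271, limma adjusted p = 0.996), and Mt2 averaged 667 ± 72.5 and 778 ± 314 (-0.16, SE 0.252, limma adjusted p = 0.693). Their ranges overlapped for both genes. The sign of each turned with a control array: without GFP, Mt1 was at -0.33 and Mt2 at -0.57, the latter past the threshold, and without LacZ they were at 0.34 and 0.25. The GFP null array over the wild-type GFP array gave signal ratios of 1.51 for Mt1 and 1.29 for Mt2, and over LacZ 0.94 and 0.72. Ordered by mean signal, the groups ran for both genes from add-back through full-length PREX2 and truncated PREX2 to control vector and null line. On the log2 scale the means of the last pair were level for Mt1, and their arrays overlapped for both genes, as truncated PREX2 and control vector did for Mt1.

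Mtf1, the gene of the metal sensor, was dim and changed little. Its brightest probe set gave 202 and 213 in the null line, 252 on add-back, 184 and 219 with control vector, 266 with full-length PREX2 and 169.7, 203 and 174 with K278*, E824* and Q1430*. The add-back and full-length arrays were again the highest, but 1.29-fold at most above their control mean. The next probe set was lowest on add-back (121 against 137 to 229 elsewhere), and the third was highest on the wild-type GFP array (238), so the probe sets of Mtf1 disagreed on the order of arrays. None of the 3 passed in the null line (log2 differences of 0.04, -0.34 and -0.13) or with truncated PREX2 (-0.13, 0.01 and 0.06), with limma adjusted p of at least 0.277. Another 2 Mtf1 probe sets, with mean signals of 39.2 and 7.32, were too dim to test.

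Slc30a1, the exporter that MTF-1 switches on, did not follow the metallothioneins. Its brighter probe set was lowest on the add-back array, at 161, with 210.0 and 266 on the null arrays; it read 250.0 and 337 with control vector, 274 with full-length PREX2 and 272, 309.8 and 377 with K278*, E824* and Q1430*. The array with the highest Mt1 and Mt2 thus had the lowest Slc30a1, 0.712-fold the null-line mean, and full-length PREX2 lay between both control arrays. The dimmer probe set read 113 on add-back, inside the range of the null arrays (70.1 to 142), so the low add-back value was seen at 1 of 2 probe sets. Neither passed in the null line (log2 differences of -0.27, SE 0.225, and -0.09, SE 0.310, limma adjusted p of 0.438 and 0.860) or with truncated PREX2 (0.12 and 0.10, limma adjusted p of 0.887 and 0.928).

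Slc39a10, the importer that MTF-1 holds down, was the member that rose in the null line. Its bright probe set gave signals of 1713 and 1651 in the null line against 1254 and 1020.1 with control vector, which is 0.56 on the log2 scale (SE 0.159, n = 2 in each group, limma adjusted p = 0.0463). The dimmer probe set read 231 and 210.3 against 112 and 121, or 0.80 (SE 0.191, limma adjusted p = 0.027). These were 2 of 9 member probe sets tested, both higher, where 19.7% of all probe sets passed and 10.7% passed as higher, so a count of this size is near the background of this comparison. Both calls were lost without one or the other null array (0.54 and 0.59 at the bright probe set, 0.74 and 0.86 at the dimmer one), the first also without LacZ (0.42) and the second without GFP (0.75).

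On add-back the probe sets of Slc39a10 differed. The bright one read 1497, 0.892-fold the null-line mean and above all wild-type-line arrays, and the dimmer one 150.5, 0.715-fold the null-line mean and inside the wild-type range, below Q1430*. With full-length PREX2 Slc39a10 read 919.9 and 144, lower than both controls at one probe set and higher at the other. With K278*, E824* and Q1430* it read 1126, 912 and 1019 at the bright probe set and 118, 125 and 153 at the dimmer, and neither passed (log2 differences of -0.15 and 0.14, limma adjusted p of 0.844 and 0.846).

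**Figure D3:**
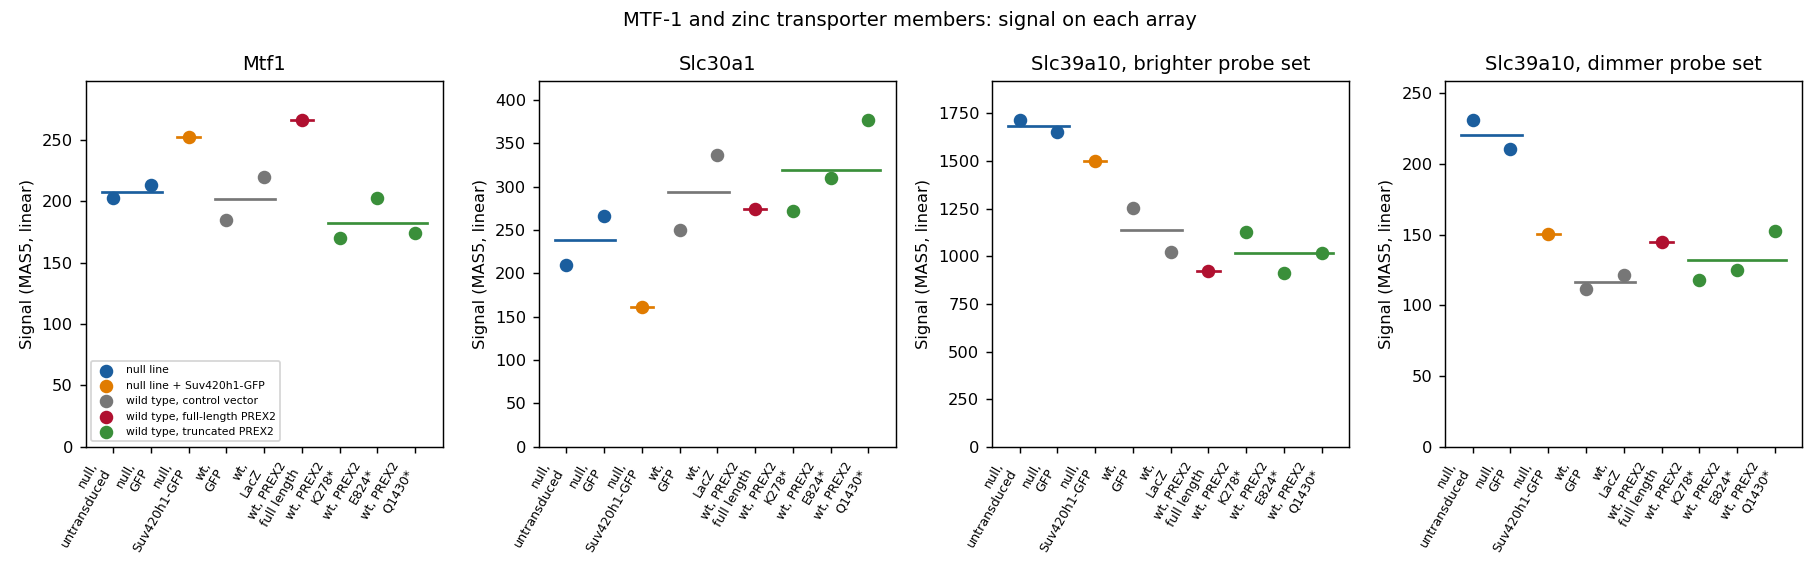
Signal (linear, MAS5) of the brightest Mtf1 and Slc30a1 probe sets and both Slc39a10 probe sets on each array; points are arrays, lines group means. The brighter Slc39a10 probe set reads 1497 to 1713 on the 3 arrays of the Suv420h1 knockout line and at most 1254 in wild-type cells, whereas at the dimmer one add-back (150.5) lies in the wild-type range; Slc30a1 is lowest, at 161, on the add-back array.

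Of the remaining zinc transporters, 22 genes of the Slc30 (exporter) and Slc39 (importer) families, all were on the array and 15 were bright enough to test; the other 7 had mean signals between 9.51 and 35.8. In the null line 4 rose, 0 fell and 11 did not pass, with a median log2 difference of 0.33 against 0.00 over all probe sets tested, and with 10.7% of all probe sets called higher. Slc39a8, which encodes the plasma-membrane importer ZIP8, gave 449.8 and 376 in the null line and 475 on add-back, and was near background in wild-type cells: 5.81 and 3.98 on the control arrays and 11.4 to 21.1 with any PREX2 construct. Its log2 difference of 3.87 (SE 0.238, limma adjusted p = 0.000125) is set partly by the offset of 25, being 5.40 with an offset of 5 and 2.29 with 100. It reached the signal minimum only through the arrays of the knockout line, so its entry to the test already required a difference. Its place among the 4 that rose, and among the calls kept below with arrays left out, therefore adds no support.

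The other transporters that rose work in the secretory pathway, and by less: Slc39a13 (ZIP13), with 555 and 562 against 366 and 343 (log2 0.62), Slc30a7 (ZnT7), with 819 and 794 against 517 and 595 (0.52), and Slc39a7 (ZIP7), with 4419 and 4731 against 3301 and 3592 (0.41). Their limma adjusted p were 0.0256, 0.0364 and 0.042. Leaving out either array of the null line ended each of these calls, as did leaving out LacZ for Slc39a13 and GFP for Slc30a7 and Slc39a7. With either null array left out, 1 of the 15 was called, and with control arrays left out 3 (without GFP) or 6 (without LacZ). Over all alternatives their lowest log2 differences were 0.54, 0.42 and 0.35. A second Slc30a7 probe set differed by 0.14 (limma adjusted p = 0.715). With truncated PREX2 0 of 15 passed in limma, 0 also at an unadjusted p under 0.05, with a median of 0.01. On add-back the 15 differed by -0.15 to 0.46 and with full-length PREX2 by -0.37 to 0.34, so none was near the differences of Mt1 and Mt2 there.

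**Figure D4:**
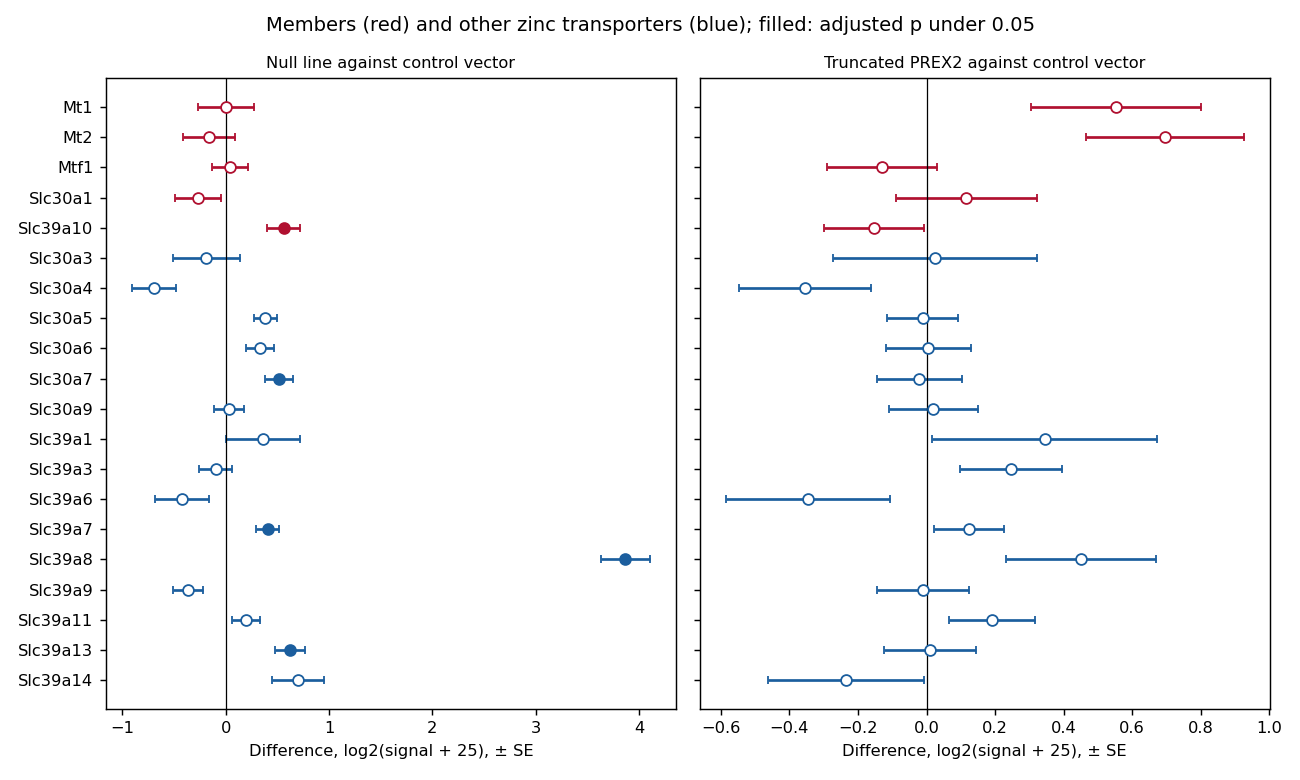
Log2 differences (± SE) of the 5 members (brightest probe set, red) and 15 other zinc transporters (blue) in the null line (left, 2 against 2 arrays) and with truncated PREX2 (right, 3 against 2 arrays), both against control vector; filled points passed. In the left panel Slc39a8 stands at 3.87 and Slc39a10 at 0.56, while in the right panel Mt2 (0.70) and Mt1 (0.55) are the highest and no point is filled.

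Mt3, the brain metallothionein, and Mt4, that of squamous epithelium, had mean signals of 42.8 and 7.43 and were not tested. They are among the 5 genes on either side of the Mt1 and Mt2 pair, of which 6 of 10 had a probe set and 2 could be tested. Bbs2, a cilium gene, read 331 on add-back against 347 and 502 on the null arrays, and the nuclear pore gene Nup93 read 2085 against 2267 and 2350. With full-length PREX2 they differed by 0.23 and -0.34. Neither passed in the null line or with truncated PREX2 (limma adjusted p of at least 0.406), and neither was high on the arrays where Mt1 and Mt2 were.

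Lists of genes that answer to metals or to other inputs of the metallothionein promoters are given by their counts, beside the 19.7% of all probe sets called in the null line; no list is singled out from them. With truncated PREX2 0 genes of the 7 lists below passed in limma, and 1, the NF-kappaB cofactor gene Bcl3 of the STAT3 list, had an unadjusted p under 0.05. In the null line, of 4 other MTF-1 targets tested Selenow fell (log2 -1.63) and 3 did not pass. Among the latter was Gclc, a glutathione-synthesis gene, at -0.77 (SE 0.414, limma adjusted p = 0.235). Gclc read 759 and 691 in the null line, 852 with LacZ and 1833 with GFP. Of 11 oxidative-stress genes Hmox1 (1.44) and Gsr (1.37) rose, Nfe2l2 (-0.53) and Sqstm1 (-0.42) fell, and 7 did not pass. Of 10 glucocorticoid-response genes Dusp1 (2.38), Errfi1 (1.88) and the receptor gene Nr3c1 (0.61) rose, and of 9 STAT3 and acute-phase genes Lif (2.43) rose and Cebpb (-1.12) fell. Of 11 heat-shock genes Hspb1 (4.39) and Dnajb1 (1.32) rose and Hspa1a (-1.53) and Hspa1b (-0.85) fell, of 10 copper genes Sod1 rose (0.39), and of 9 iron genes Steap3 rose (1.29) and the ferritin gene Fth1 fell (-0.38). Lif reached the signal minimum only through the knockout line (451 to 518, against 53.5 to 94.0 in wild-type cells). The calls of Selenow, Hmox1, Gsr, Hspb1 and Cebpb held in all alternatives, as did that of Lif; the others ended with at least 1 null array left out. Cell type markers moved between the lines as well: Thy1 (-5.47), Krt19 (-1.70), Csf1r (-0.76), Map2 (-2.41), Tubb3 (-1.83) and Fabp4 (-1.64) fell and Pparg (1.94) rose in the null line. Of these, Pparg was above the signal minimum of 100 only in the knockout line, and Thy1, Krt19 and Tubb3 only in wild-type cells. Their part in these differences was not tested.

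The genes most like Mt1 and Mt2 in pattern are given as a description; the pair was chosen together for its levels on these arrays, so its own correlation restates that choice. Over all 9 arrays, Mt2 had the highest Pearson correlation with Mt1 among 8808 genes with a mean signal of at least 200 (0.95), ahead of the endoplasmic-reticulum oxidoreductase Txndc5 (0.93), Pex13 of the peroxisome (0.93), the actin regulator Coro1b (0.91) and Dennd5a (0.89). For Mt2, the CTP synthase gene Ctps2 (0.95) came before Mt1, then Dclk1 (0.92), Plekha2 (0.92) and Txndc5 (0.90). The lowest values were -0.94 for the mitotic kinesin Kif4 with Mt1 and -0.94 for Abhd10 with Mt2, with Mphosph9 and Tpgs2 (both -0.91) and Kif4 and Txnl4a (-0.91 and -0.88) next. The arrays share lines and constructs, so these values describe 9 points that are not independent.

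Within the 6 wild-type-line arrays alone the correlation of Mt1 with Mt2 was 0.92, which ranked 81st from the top for either gene. These arrays include GFP, the lowest for both genes, and no correlation was computed without it. There Dctn3, Stx4a, Zfp825, Copz1 and Arid2 were closest to Mt1 (0.97 to 0.99) and Fuom, Selenon, Ghitm, Gosr2 and Crlf2 to Mt2 (0.98 to 0.99). At the other end stood Zfp955b, Klc1 and BC052688 for Mt1 (-0.99 to -0.98), and for Mt2 the copper chaperone Cox17, Fam126b and Pdik1l (each -0.99). No gene was shared between these closest sets, so with 6 arrays the leading names changed with the gene chosen.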

How the data were processed

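Labelling used a 3' IVT express kit, per the labels' protocols. The authors deposited one intensity per probe set, a linear MAS5 signal per the submitters' processing notes, whose version and scaling target were not found. The trimmed mean (2% off each end) equalled 500.0 on all arrays, with medians of 56.4 to 68.9. Of 45101 probe sets, 64 controls were left out; 34945 carried 1 gene symbol, 932 several and 9160 none, and 34741 matched RefSeq's GRCm38.p6 table by gene identifier. Promoters come from RefSeq's sequences of that build.

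Signals were transformed as log2(signal + 25), which understates changes of dim probe sets. The 19090 probe sets with a mean signal of at least 100 were fitted together in limma 3.58.1 (R 4.3.3), using 5 group means (4 residual degrees of freedom) and eBayes with an intensity trend; the spread of single arrays was taken from the replicated groups. P-values are two-sided and Benjamini-Hochberg adjusted over all probe sets within a comparison, with a threshold of 0.05. The limma step was first run on simulated data with independent noise and no array set apart. That run therefore does not cover an outlying array such as the wild-type GFP array. Per gene the brightest probe set was used, and others are given where named. Every member was named, and from each list the passing genes, up to 4; closest genes were the 5 highest and 3 lowest correlations. The members and lists were chosen with earlier results of these data known. Alternatives were offsets of 5 and 100, filters of none and 200, quantile normalization, no trend, the compared groups alone, and each replicate left out.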

Additional observations from a re-analysis of the deposited data

How the results depend on the processing

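Of 147 recomputed differences of the 5 members, 130 kept their direction and their side of the threshold, or, where untested, moved by less than the spread between replicates. Those of Mt1 and Mt2 on add-back and with full-length PREX2 were among these under every alternative. In a group of 2 arrays, leaving 1 out always moves the mean by less than their spread, so those alternatives could not fail. With control arrays left out, the full-length difference ranged from 0.67 to 1.34 for Mt1 and from 0.53 to 1.35 for Mt2. With null arrays left out, the add-back difference ranged from 1.035 to 1.52 for Mt1 and from 1.69 to 1.90 for Mt2. In the null line, quantile normalization turned the sign of Mt1 (-0.0059) and of Mtf1 (-0.0707), and the call of Slc39a10 ended with no filter (0.56, limma adjusted p = 0.0686), quantile normalization (0.54), no trend (0.56) and the compared groups alone (0.56). With replicates left out in turn, the null-line differences ranged from -0.33 to 0.34 for Mt1, -0.57 to 0.25 for Mt2, -0.071 to 0.15 for Mtf1 and 0.42 to 0.71 for Slc39a10, and those with truncated PREX2 from 0.29 to 1.11 for Mt2 and -0.0816 to 0.31 for Slc30a1. Dimmer probe sets also changed sign as replicates were left out: in the null line the dimmest tested Mtf1 probe set ranged from -0.58 to 0.33 and the dimmer one of Slc30a1 from -0.4994 to 0.31. With truncated PREX2, the middle Mtf1 probe set ranged from -0.0967 to 0.11 (-0.0347 after quantile normalization), the dimmest from -0.40 to 0.51 and the dimmer one of Slc30a1 from -0.0817 to 0.28.

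Probe sets called in the null line numbered 3753, 1834 with the compared groups alone and 1011 to 4522 with replicates left out. Zinc transporter genes called there numbered 4, 2 with no filter, 1 with the compared groups alone and 1 to 6 with replicates left out. For truncated PREX2 the 1 call became 0 with an offset of 100, no filter or the compared groups alone, and 0 to 117 with replicates left out, the 117 without LacZ. The cause of these changes was not tested, beyond fewer arrays giving fewer degrees of freedom. No paired analysis was possible because the labels give no replicate numbers. The number of arrays limits precision.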
